A study of Homo sapiens with 5 samples.

Results

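The cytotoxic granule effector genes encode mainly proteins that natural killer (NK) cells store in granules and release onto a target cell. The list also holds NKG7, a granule membrane protein, CST7, a cathepsin inhibitor, and CTSW, a cathepsin. The genes were chosen by name as the 10 rows of the count table called PRF1, GZMA, GZMB, GZMH, GZMK, GZMM, GNLY, NKG7, CST7 and CTSW, of 57221 rows in all. All 10 passed the filter on low counts, together with 13075 tested genes in total. The cells were NK92MI, an established human NK lymphoma line that makes its own interleukin 2 from an introduced gene. The tested cells were given 10 µM UNC1999, an inhibitor of the histone methyltransferases EZH2 and EZH1, for 48 h (3 libraries). The control cells were given the solvent DMSO for the same 48 h (2 libraries). Both groups are 1 cell line, and the labels do not say whether each library had its own culture. The p-values therefore reflect library-to-library spread alone, and that may be technical. The comparison asks whether the granule arsenal of these cells responds to the inhibitor.

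In killing by granules, perforin forms pores in the target cell membrane and granzymes, a family of serine proteases, pass into the target and cleave its proteins. Granzymes are made as inactive precursors, are sorted to granules by mannose 6-phosphate receptors, are activated by cathepsin C and are held on the proteoglycan serglycin until release. EZH2 and EZH1 place the repressive methyl mark on lysine 27 of histone H3. The transcripts are measured here, not the proteins, and in bulk RNA a smaller share of cells with a transcript and less transcript per cell cannot be told apart.

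Totals of counts assigned to genes were 8644161, 8718661 and 8687863 in the UNC1999 libraries and 8442908 and 8748106 in the DMSO libraries. UNC1999 replicate 2 stood apart from the other libraries of its group. A chi-square statistic of the counts, per degree of freedom, was 7.47 between UNC1999 replicates 1 and 2, 8.77 between 2 and 3, and 1.81 between 1 and 3, against 3.14 between the DMSO libraries. No pair agreed within sampling noise. Results are therefore given with and without that library. Of 14 NK markers, 11 were tested. The summed level of the 14 was 704 to 815 CPM (counts per 1000000) in UNC1999 libraries and 777 to 779 CPM in DMSO libraries. NCAM1, CD244 and CD247 had the most counts. NCR3 was listed at 0 in all 5 libraries, KLRK1 had 3 to 11 counts and TYROBP 1 to 7. FCER1G and NCR1 were also low, at 14 to 21 and 19 to 32 counts. Of the T cell markers, CD3D, CD3G, CD4 and CD8B were listed at 0 in all 5 libraries. CD3E had 5760, 5190 and 5588 counts in UNC1999 libraries and 5211 and 5695 counts in DMSO libraries. Scaled between libraries with TMM factors, CD3E averaged 617.3 CPM in UNC1999 and 662.1 CPM in DMSO cells. The marker sums are CPM over the library total without those factors, so they are not on the scale of the CD3E means. The summed T cell markers ran from 615 to 687 CPM in UNC1999 libraries and from 637 to 672 CPM in DMSO libraries. The B cell sum was 17.7 to 25.8 CPM in UNC1999 libraries and 22.9 to 24.4 CPM in DMSO libraries. The myeloid sum was 110 to 145 CPM in UNC1999 libraries and 110 to 122 CPM in DMSO libraries. Of the myeloid markers LYZ was at 0, while ITGAX had 1136, 837 and 942 counts in UNC1999 libraries and 891 and 800 in DMSO libraries. A gene listed at 0 may be one whose reads were not assigned, since HLA-E and all mitochondrial genes, which cells use widely, were also at 0 in all 5 libraries. The part of these markers in the results was not tested.

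On GRCh38 (GENCODE 29), the pore genes lay apart, with PRF1 at chr10:70597348-70602775 on the minus strand and GNLY at chr2:85685175-85698854 on the plus strand. GZMA (chr5:55102648-55110252) and GZMK (chr5:55024253-55034570) lay side by side on the plus strand. GZMB (chr14:24630954-24634267) and GZMH (chr14:24606480-24609699) likewise lay close together on the minus strand of chromosome 14. On chromosome 19 were GZMM (chr19:544034-549924, plus strand) and, far from it, NKG7 (chr19:51371606-51372715, minus strand). CST7 was at chr20:24949230-24959928 and CTSW at chr11:65879809-65883741, both on the plus strand. Every value below is the count over all exons of the gene. The exons of GZMK overlapped an antisense processed transcript, AC034238.1, over 749 bases, or 47.7% of their length, and no source used here states the strand setting of the counting, so reads of that stretch cannot be assigned to a strand. The exons of CTSW overlapped those of FIBP by 1 base.

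The sequence before each RefSeq start was looked up because the inhibitor acts on chromatin and because the fold changes of perforin and granzyme A had opposite signs. The signs were opposite with and without correction for GC content, though neither gene was called with all libraries and no correction. RefSeq promoters (GRCh38.p14) were found for 6 of the 10 members, namely PRF1, GZMA, GZMB, GZMH, GNLY and NKG7. The RefSeq start of GNLY puts its window (chr2:85694108-85694357) inside the gene span of GENCODE 29 given above, so it is not upstream of that annotation. In the 250 bases before the RefSeq start, the ratio of observed to expected CpG was 0.305 for PRF1, 0.259 for NKG7, 0.167 for GNLY, 0.0829 for GZMA, 0.0587 for GZMB and 0 for GZMH, against a median of 0.556 over 27305 promoters. All 6 were therefore poorer in CpG than the middle promoter. The letters TGTGGT of the RUNX motif stood on either strand in 4 of 6 members (PRF1, GZMA, GZMB and GNLY) and in 10.9% of all promoters. The ETS letters CAGGAAG stood in 2 of 6 (PRF1 and NKG7) and in 10.5% of all promoters. The T-box letters GGTGTGA, found in 2.72% of promoters, and the STAT letters TTCNNNGAA, found in 6.78%, stood in none of the 6. A match is only a run of letters, not a bound site. The stretches upstream of PRF1 (chr10:70602776-70602991, minus strand), GZMA (chr5:55102396-55102645, plus strand) and GZMB (chr14:24634268-24634440, minus strand) are shown 5′ to 3′ with RUNX and ETS letters of either strand in capitals.
PRF1: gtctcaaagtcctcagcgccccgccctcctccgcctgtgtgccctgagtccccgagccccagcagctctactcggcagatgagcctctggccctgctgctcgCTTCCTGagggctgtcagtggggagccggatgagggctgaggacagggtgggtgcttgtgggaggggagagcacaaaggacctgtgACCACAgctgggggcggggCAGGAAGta
GZMA: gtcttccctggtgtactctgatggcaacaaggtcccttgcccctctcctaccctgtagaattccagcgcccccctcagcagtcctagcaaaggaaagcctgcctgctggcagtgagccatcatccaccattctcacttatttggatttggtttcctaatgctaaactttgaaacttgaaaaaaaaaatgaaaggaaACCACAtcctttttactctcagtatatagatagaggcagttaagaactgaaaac
GZMB: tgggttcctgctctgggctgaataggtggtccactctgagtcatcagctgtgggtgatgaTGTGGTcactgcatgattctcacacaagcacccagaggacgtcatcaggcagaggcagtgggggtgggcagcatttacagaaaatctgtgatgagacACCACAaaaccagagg
PRF1 carried a RUNX and 2 ETS matches, GZMA a single RUNX match near its start, and GZMB 2 RUNX matches.

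Some of the effector genes were among the most abundant transcripts of both groups. Together all the members held 0.816%, 0.764% and 0.795% of all counts in the UNC1999 libraries, against 0.72% and 0.765% in the DMSO libraries. The 95% Wilson interval, which covers counting error only, ran from 0.81% to 0.822% in UNC1999 replicate 1. UNC1999 replicate 2 lay below DMSO replicate 2, so the groups overlapped. Of the 57221 rows, between 19947 and 20559 had a count in a library. By CPM among all rows, NKG7 ranked 23, 31 and 26 in UNC1999 libraries and 39 and 35 in DMSO libraries. GZMB ranked 31, 33 and 38 in UNC1999 libraries and 37 and 34 in DMSO libraries. CTSW ranked 36, 45 and 34 in UNC1999 libraries and 54 and 48 in DMSO libraries. These 3 stood in the top 100 rows of every library. PRF1 ranked 76, 97 and 67 in UNC1999 libraries and 146 and 127 in DMSO libraries, so it was in the top 100 of the UNC1999 libraries and outside it in DMSO. GZMA ranked 140, 82 and 155 in UNC1999 libraries and 131 and 111 in DMSO libraries. The other members ranked from 447 (GZMM in UNC1999 replicate 3) down to 1843 (GZMH in DMSO replicate 1).

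Scaled for length (counts per kb of merged exon, rescaled to sum to 1000000 over 35803 genes), the order of levels was close to the same in both groups. NKG7, a granule membrane protein that promotes degranulation, came first, at 7935 ± 599.9 in UNC1999 and 7265 ± 307.5 in DMSO cells (SD, n = 3 and 2), with rank 4 or 5 of all genes in every library (10 to 13 with the length of the longest coding transcript). GZMB, the protease that activates caspases and the best studied granzyme, followed at 4658 ± 133.7 in UNC1999 and 4915 ± 103.0 in DMSO cells, and ranked 12 in all 5 libraries (16 or 17 with the other length). CTSW, a cathepsin of cytotoxic lymphocytes, had 3627 ± 274.0 in UNC1999 and 3026 ± 71.16 in DMSO cells. GZMA, the tryptase of the family, had 3615 ± 702.8 in UNC1999 and 3820 ± 78.76 in DMSO cells. CTSW and GZMA overlapped in UNC1999 cells, whereas in DMSO cells GZMA lay above CTSW in both libraries.
PRF1 came next on this length-scaled level, at 1674 ± 189.6 in UNC1999 and 1300 ± 15.23 in DMSO cells, and its range overlapped that of GZMM in both groups. GZMM had 1471 ± 178.7 in UNC1999 and 1292 ± 41.45 in DMSO cells. CST7 had 1091 ± 148.1 in UNC1999 and 1132 ± 4.794 in DMSO cells. GZMH, GZMK and GNLY were the lowest, with means of 657.5, 456.1 and 305.7 in UNC1999 cells and 582.1, 500.6 and 284.3 in DMSO cells. The place of GNLY, a pore-forming protein that acts on microbes and cells, depended on the length used. Its merged exons span 3051 bases and its longest coding transcript 858, and with the length of the longest coding transcript for every gene GNLY lay above GZMH and GZMK, at 686.3 in UNC1999 and 636.9 in DMSO cells. Its mean rank over the 5 libraries was 630 with merged exons and 209 with the longest coding transcript, while that of PRF1 was 61 and 131 and that of GZMA 17 and 41. The other members also ranked lower with that length, so ranks per length hold for merged exons only. With that length CTSW and GZMA also overlapped in DMSO cells, and GNLY overlapped CST7 in UNC1999 cells.

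**Figure D1:**
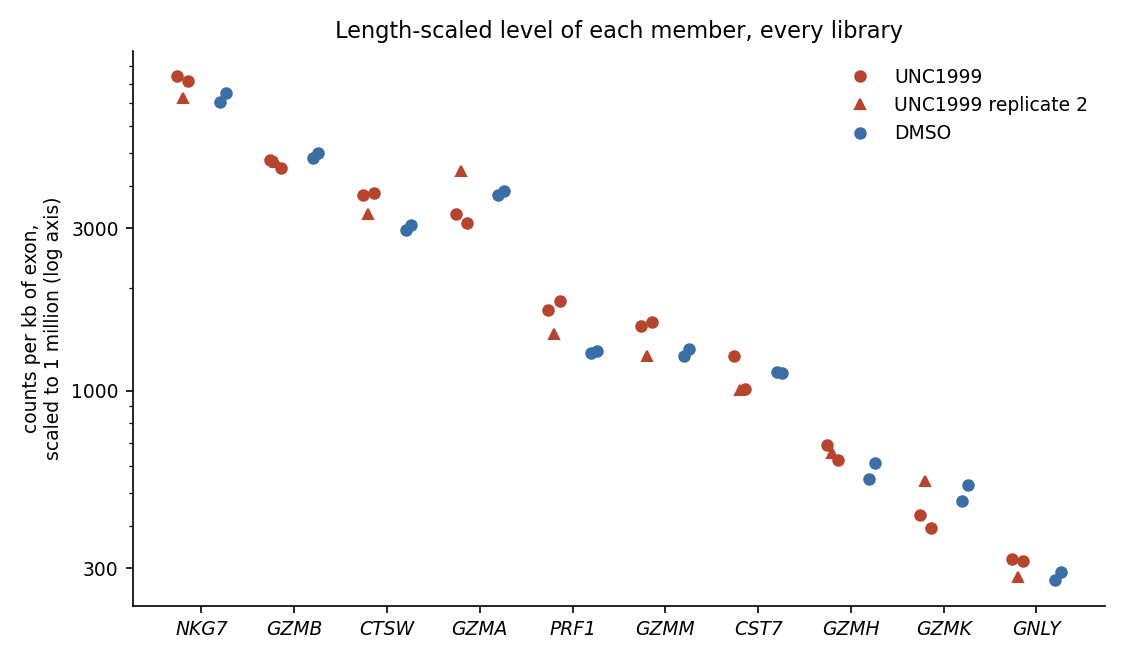
Length-scaled level of the 10 members in each library (counts per kb of merged exon, scaled to sum to 1000000, log axis); red symbols are UNC1999 libraries, the triangle being replicate 2, and blue circles are DMSO libraries. NKG7 is at the top in every library and GNLY at the bottom, and the UNC1999 means run from 7935 down to 305.7.

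With all 5 libraries, no member was called between UNC1999 and DMSO cells. A gene was called where its adjusted p from edgeR's quasi-likelihood test (Benjamini-Hochberg over 13075 genes) was under 0.05. The count was 0 higher and 0 lower of 10, beside 15.7% of all tested genes higher and 19.5% lower (2057 and 2546 genes). That split moved with the scaling, to 2949 and 1742 genes with no factors and 2625 and 2021 with upper-quartile factors. At an unadjusted p under 0.05, 1 member was higher (PRF1) and 1 lower (GZMK), beside 20.3% and 23.8% of all genes. The DESeq2 Wald test called 1 member, PRF1, and limma-voom called 0. The 95% intervals of the 10 fold changes lay between 0.713-fold and 1.4-fold, so a 2-fold change in either direction fell outside all of them. The median log2 fold change was 0.00 over the members (0.00177) and -0.01 over all tested genes. All UNC1999 libraries lay above both DMSO libraries for 1 member (PRF1), beside 24.2% of all genes, and below both for 1 member (GZMB), beside 30.4%. For the other 8 the groups overlapped.

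**Figure D2:**
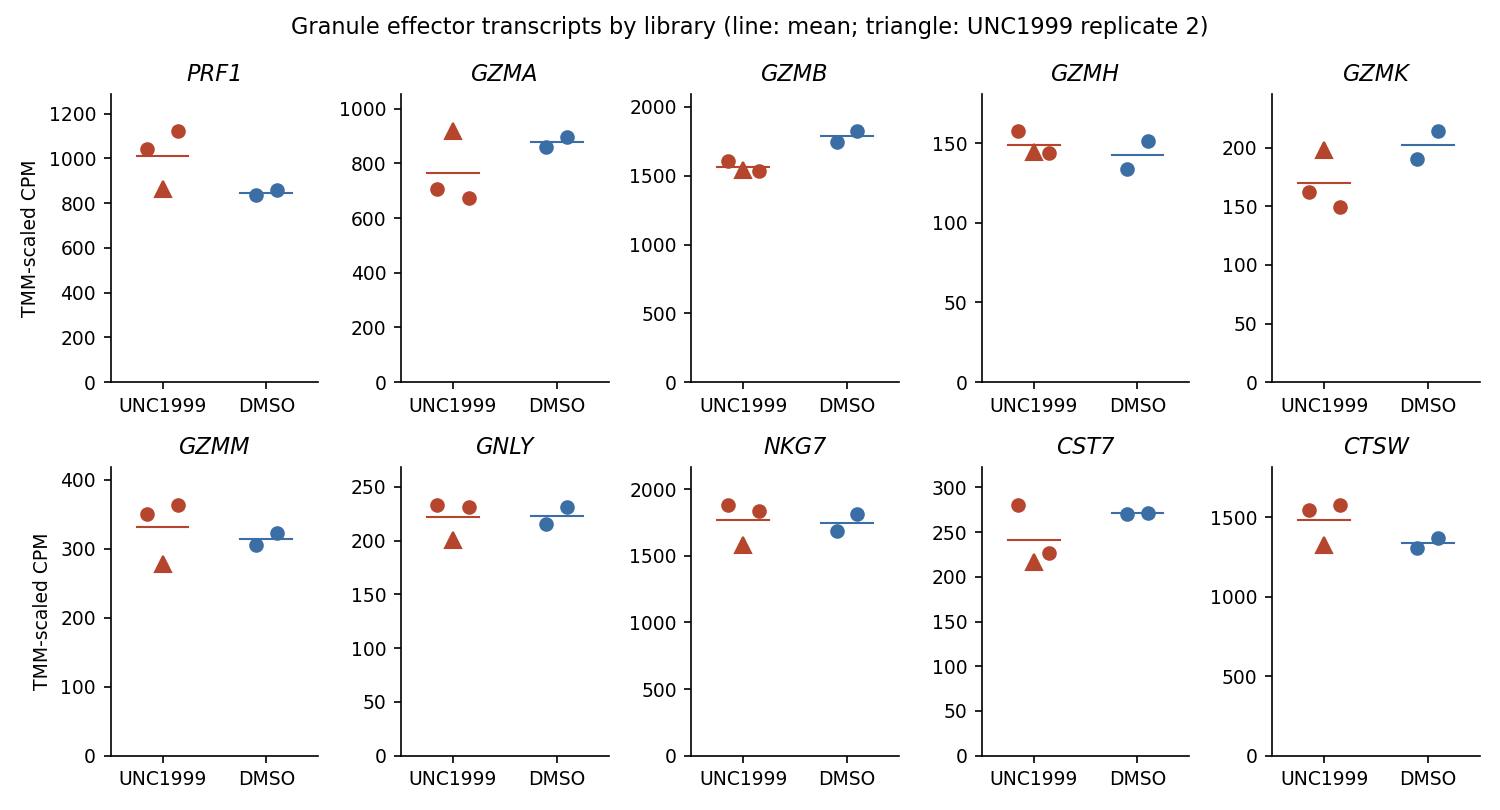
TMM-scaled CPM of each member in the UNC1999 libraries (red, triangle for replicate 2) and DMSO libraries (blue), with the group mean as a line; every vertical axis starts at 0. The groups separate for PRF1 and GZMB and overlap for the other 8, and replicate 2 is the UNC1999 library at the edge of its group for most members.

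Leaving out UNC1999 replicate 2 turned 6 of the 10 members into calls. Without it, PRF1, GZMM and CTSW were higher and GZMA, GZMB and GZMK lower, which is 3 and 3 of 10 beside 22.2% and 23.5% of 12880 genes. The intervals then lay between 0.693-fold and 1.41-fold. That library deviated from the other UNC1999 libraries with the GC content of the transcript. For PRF1, with 59.8% GC, it differed from the mean of replicates 1 and 3 by -0.33 in log2 CPM, and the median of 500 genes of like GC content differed by -0.24. For GZMM, with 66.8% GC, it differed by -0.361, and genes of like GC by -0.345. For GZMA, with 42.7% GC, it differed by 0.41, and genes of like GC by 0.17. For GZMK, with 40.5% GC, it differed by 0.35, and genes of like GC by 0.14 (0.135). The GC-poor members were thus high and the GC-rich members low in replicate 2, as were genes of the same composition.

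The fold changes of UNC1999 over DMSO followed GC content too. In 500 genes with the GC content of PRF1 the median log2 fold change was 0.05, and 89% of them lay below PRF1 (0.25). In genes like GZMB (52.9% GC) the median was -0.32, and 67.6% lay below GZMB (-0.19). In genes like GZMH (54.3%) it was -0.21, and 85.2% lay below GZMH (0.06). Near GZMK the median was 0.32, and only 11.2% lay below GZMK (-0.25). Near GZMA it was 0.14, and 24.2% lay below GZMA (-0.20). Near GZMM it was 0.205, and 28% lay below GZMM (0.07). GNLY, NKG7, CST7 and CTSW sat where the median was between -0.05 and 0.01. A fit with offsets for GC content and transcript length, over the 11019 tested genes with both, was set beside the first fit for this reason. The offsets also take out any treatment difference that itself runs along GC content or length. Changes and corrected levels with offsets are thus relative to genes of like composition. The offsets were fitted to these same libraries, which the SE with offsets does not count. Whether composition accounts for any single change was not tested.

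**Figure D3:**
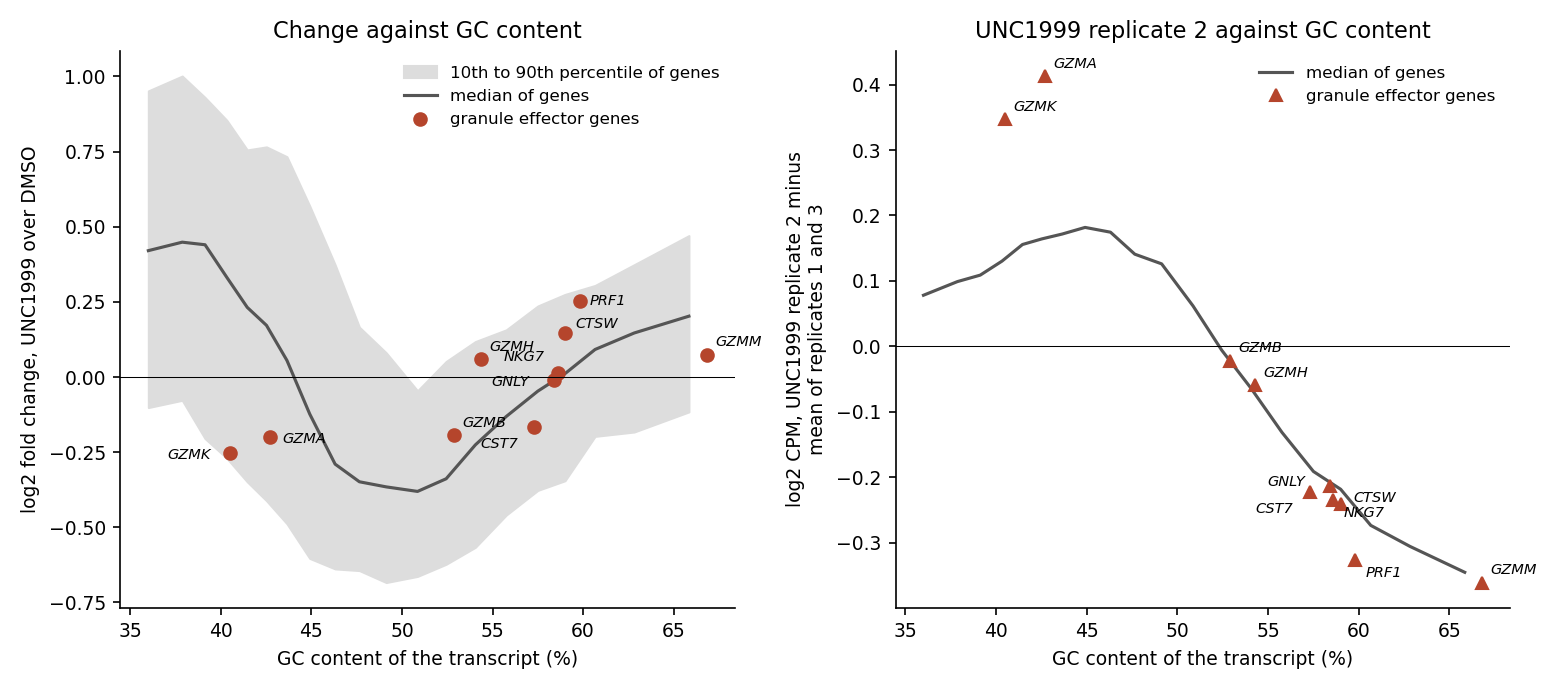
Left, log2 fold change of UNC1999 over DMSO against transcript GC content (%), with the median of genes (line) and their 10th to 90th percentile (grey); right, log2 CPM of UNC1999 replicate 2 minus the mean of UNC1999 replicates 1 and 3 against the same axis. GZMA and GZMK, the GC-poor members, lie below the line on the left and above it on the right, and PRF1 lies above the line on the left and below it on the right.

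With the offsets, 3 members were called higher in UNC1999 cells (PRF1, GZMH and CTSW) and 2 lower (GZMA and GZMK). That is relative to genes of like composition, beside 14.5% of 11019 genes higher and 18.7% lower. With the offsets and without UNC1999 replicate 2 the same 5 genes were called in the same directions, beside 15.9% and 19.6% of 10899 genes. PRF1, GZMA and GZMK were called in the fit with offsets and in each of its 5 repeats with a library left out. The call of GZMH was lost without DMSO replicate 1 (adjusted p = 0.121). That of CTSW was lost in 4 of the 5 repeats, with adjusted p of 0.094 and 0.113 without UNC1999 replicates 1 and 3, and 0.216 and 0.0671 without DMSO replicates 1 and 2. The intervals with offsets ran from 0.648-fold to 1.36-fold over the 10 members. How many of all genes have corrected levels that do not overlap between the groups was not computed. Without correction it was 24.2% of all tested genes above and 30.4% below. A lack of overlap after correction is therefore only described below. The log2 fold changes that follow come from edgeR's quasi-likelihood test with Benjamini-Hochberg adjustment, and the CPM values are scaled with TMM factors.

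Perforin (PRF1), a pore-forming protein of the granules, had 1044, 862.4 and 1122 CPM in the UNC1999 libraries, against 835 and 860.4 CPM in the DMSO libraries. Replicate 2 lay just above the higher DMSO library, and the other UNC1999 libraries lay well above both. The means were 1009 ± 133.2 CPM in UNC1999 and 847.7 ± 17.97 CPM in DMSO cells (SD, n = 3 and 2). The log2 fold change was 0.25 (SE 0.11, adjusted p = 0.0793) with all libraries and 0.36 (SE 0.07, adjusted p = 5.74e-05) without replicate 2. With offsets it was 0.25 (SE 0.07, adjusted p = 0.00288). The corrected levels were 1050, 1015 and 1133 CPM in UNC1999 libraries and 876.8 and 916.4 CPM in DMSO libraries, and did not overlap. The call with all libraries turned on the scaling. PRF1 was called with DESeq2 size factors (adjusted p = 0.044), upper-quartile factors (0.0225) and no factors (0.00764), and its fold change was positive in all 22 alternatives.

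Granulysin (GNLY), the other pore former, had 233.5, 200.5 and 231.5 CPM in UNC1999 libraries and 215.5 and 231 CPM in DMSO libraries. These values overlapped throughout. Its log2 fold change was -0.01 (95% interval -0.23 to 0.21, adjusted p = 0.957), and 0.03 (-0.11 to 0.16, adjusted p = 0.782) with offsets. It was called in none of 22 alternatives.

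Among the granzymes, GZMA had 706.4, 918.3 and 673.7 CPM in UNC1999 libraries and 860.4 and 897.9 CPM in DMSO libraries. Replicate 2 was the highest of all 5 libraries, and the other UNC1999 libraries were the lowest. The log2 fold change was -0.20 (SE 0.12, adjusted p = 0.187), -0.34 (adjusted p = 0.000122) without replicate 2 and -0.28 (SE 0.07, adjusted p = 0.00129) with offsets. Without UNC1999 replicate 3 it was -0.11 (adjusted p = 0.579). GZMK, a tryptase like GZMA and its neighbour on the chromosome, had 161.9, 198 and 149.5 CPM in UNC1999 libraries and 190.6 and 214.1 CPM in DMSO libraries. Replicate 2 lay between the DMSO libraries, and the other UNC1999 libraries below both. Its log2 fold change was -0.25 (SE 0.12, adjusted p = 0.0866), -0.37 (adjusted p = 0.000382) without replicate 2 and -0.48 (SE 0.07, adjusted p = 1.58e-06) with offsets. Without UNC1999 replicate 3 it was -0.17 (adjusted p = 0.369), and without DMSO replicate 2 -0.17 (adjusted p = 0.496). After correction GZMK had 166.9, 181.6 and 155.9 CPM in UNC1999 libraries and 232.4 and 239.4 CPM in DMSO libraries, the widest corrected difference of the 10 members on the log2 scale. GZMA then had 762.2, 868.6 and 739 CPM in UNC1999 libraries and 973.6 and 948.4 CPM in DMSO libraries. Neither gene's groups overlapped after correction, a trait whose share over all genes was not computed.

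GZMB had 1605, 1545 and 1535 CPM in UNC1999 libraries and 1747 and 1824 CPM in DMSO libraries. The UNC1999 libraries were all lower, replicate 2 included. The log2 fold change was -0.19 (SE 0.10, adjusted p = 0.15), and -0.18 (adjusted p = 0.0242) without replicate 2. With offsets the sign turned, to 0.11 (SE 0.06, adjusted p = 0.198), and the corrected levels were 1836, 1768 and 1805 CPM in UNC1999 libraries and 1626 and 1702 CPM in DMSO libraries. A direction for GZMB therefore depended on the correction for composition. GZMH, the chymase-like neighbour of GZMB, had 157.5, 144.4 and 143.8 CPM in UNC1999 libraries and 133.8 and 151.2 CPM in DMSO libraries. Its groups overlapped, and the log2 fold change was 0.06 (SE 0.11, adjusted p = 0.713) with all libraries and 0.09 (adjusted p = 0.386) without replicate 2. With offsets it was 0.29 (SE 0.07, adjusted p = 0.00158), from corrected levels of 175.3, 166.6 and 164 CPM in UNC1999 libraries and 128.4 and 145.1 CPM in DMSO libraries. GZMM, which prefers to cut after methionine, had 350.6, 278.2 and 364.1 CPM in UNC1999 libraries and 305.2 and 323.7 CPM in DMSO libraries. Replicate 2 was the lowest of the 5 and the other UNC1999 libraries the highest. The log2 fold change was 0.07 (SE 0.11, adjusted p = 0.661), 0.20 (adjusted p = 0.0239) without replicate 2 and -0.10 (SE 0.06, adjusted p = 0.245) with offsets. Corrected, GZMM had 331.6, 328.6 and 338.2 CPM in UNC1999 libraries and 356.4 and 358.2 CPM in DMSO libraries, without overlap though not called.

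GZMB and GZMH resemble each other enough for reads to be shared. Their coding sequences were identical at 80.9% of 734 aligned bases, against 61.1% to 67.3% for the other granzyme pairs. Of the 50-base windows of the longest coding transcripts, 57 of 919 in GZMB (6.2%) and 57 of 860 in GZMH (6.63%) also stood in the other gene, and 0 in each of the other 8 members. All of these windows came from a single run of 106 bases that begins at coding position 252 in both genes. The run is shown in capitals, with 20 bases on each side in lower case, from the GENCODE 29 transcripts on the sense strand.
GZMB: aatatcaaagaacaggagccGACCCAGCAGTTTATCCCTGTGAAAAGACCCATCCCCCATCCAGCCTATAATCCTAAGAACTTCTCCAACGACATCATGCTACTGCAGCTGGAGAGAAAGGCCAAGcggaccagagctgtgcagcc
GZMH: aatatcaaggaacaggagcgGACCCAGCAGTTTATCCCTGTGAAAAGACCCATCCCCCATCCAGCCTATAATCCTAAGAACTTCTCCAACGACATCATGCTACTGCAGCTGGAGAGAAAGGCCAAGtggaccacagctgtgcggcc
Counts of GZMB and GZMH are uncertain, since no source used here states what was done with reads that fit both genes. GZMB averaged 1562 CPM in UNC1999 and 1785 CPM in DMSO cells, and GZMH 148.6 and 142.5 CPM. Reads of the run that came from GZMB could therefore make up more of the GZMH count than its share of windows.

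In uncorrected counts, the make-up of the granzyme pool varied more with UNC1999 replicate 2 than with treatment. This holds for counts only. In the corrected levels given above, the groups did not overlap for GZMA, lower in UNC1999, or for GZMB, higher in UNC1999. Shares of the pool were not computed from corrected levels. GZMB gave 53.8%, 50.1% and 53.6% of granzyme counts in UNC1999 libraries and 54% and 53.5% in DMSO libraries. GZMA gave 23.7%, 29.8% and 23.5% in UNC1999 libraries and 26.6% and 26.3% in DMSO libraries. The ratio of PRF1 to GZMB counts was 0.65, 0.558 and 0.731 in UNC1999 libraries and 0.478 and 0.472 in DMSO libraries, a log2 difference of 0.44 with no overlap. From levels corrected with the offsets it was 0.572, 0.574 and 0.628 in UNC1999 libraries and 0.539 and 0.538 in DMSO libraries, a log2 difference of 0.13, again with no overlap. An exact two-sided permutation test of the count ratio gave p = 0.2, the smallest that 3 against 2 libraries allows, and p = 0.5 after Benjamini-Hochberg adjustment over the 5 ratios to granzymes. The ratios were chosen after the values had been seen. PRF1 to GZMA was 1.48, 0.939 and 1.67 in UNC1999 libraries and 0.97 and 0.958 in DMSO libraries, and overlapped (exact permutation p = 0.6). PRF1 to GZMM was 2.98, 3.1 and 3.08 in UNC1999 libraries and 2.74 and 2.66 in DMSO libraries (exact permutation p = 0.2). Those to GZMK and GZMH overlapped (exact permutation p = 0.4 for each). From corrected levels the ratios to GZMA, GZMK and GZMM did not overlap (log2 differences 0.54, 0.74 and 0.35), and that to GZMH overlapped (-0.06). How often corrected ratios of other genes lack overlap was not computed.

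NKG7 had 1883, 1578 and 1833 CPM in UNC1999 libraries and 1685 and 1813 CPM in DMSO libraries. Replicate 2 was the lowest of the 5. The log2 fold change was 0.01 (95% interval -0.21 to 0.23, adjusted p = 0.941), and with offsets 0.04 (-0.09 to 0.17, adjusted p = 0.663). CTSW had 1548, 1323 and 1579 CPM in UNC1999 libraries and 1308 and 1370 CPM in DMSO libraries, with replicate 2 between the DMSO libraries. Its log2 fold change was 0.15 (SE 0.11, adjusted p = 0.306), 0.23 (adjusted p = 0.00346) without replicate 2 and 0.17 (SE 0.06, adjusted p = 0.0322) with offsets. Corrected, it had 1574, 1548 and 1621 CPM in UNC1999 libraries and 1374 and 1429 CPM in DMSO libraries. CST7, which encodes cystatin F, an inhibitor of cathepsins including the one that activates granzymes, had 280.7, 216.3 and 227.1 CPM in UNC1999 libraries and 269.9 and 271.9 CPM in DMSO libraries. Replicate 1 was above the DMSO libraries and the other UNC1999 libraries were below. The log2 fold change was -0.17 (95% interval -0.40 to 0.06, adjusted p = 0.263), and with offsets -0.08 (-0.22 to 0.07, adjusted p = 0.447). It was -0.28 without UNC1999 replicate 1 (adjusted p = 0.12) and -0.08 without replicate 2 (adjusted p = 0.424). Neither NKG7 nor CST7 was called in any of 22 alternatives.

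**Figure D4:**
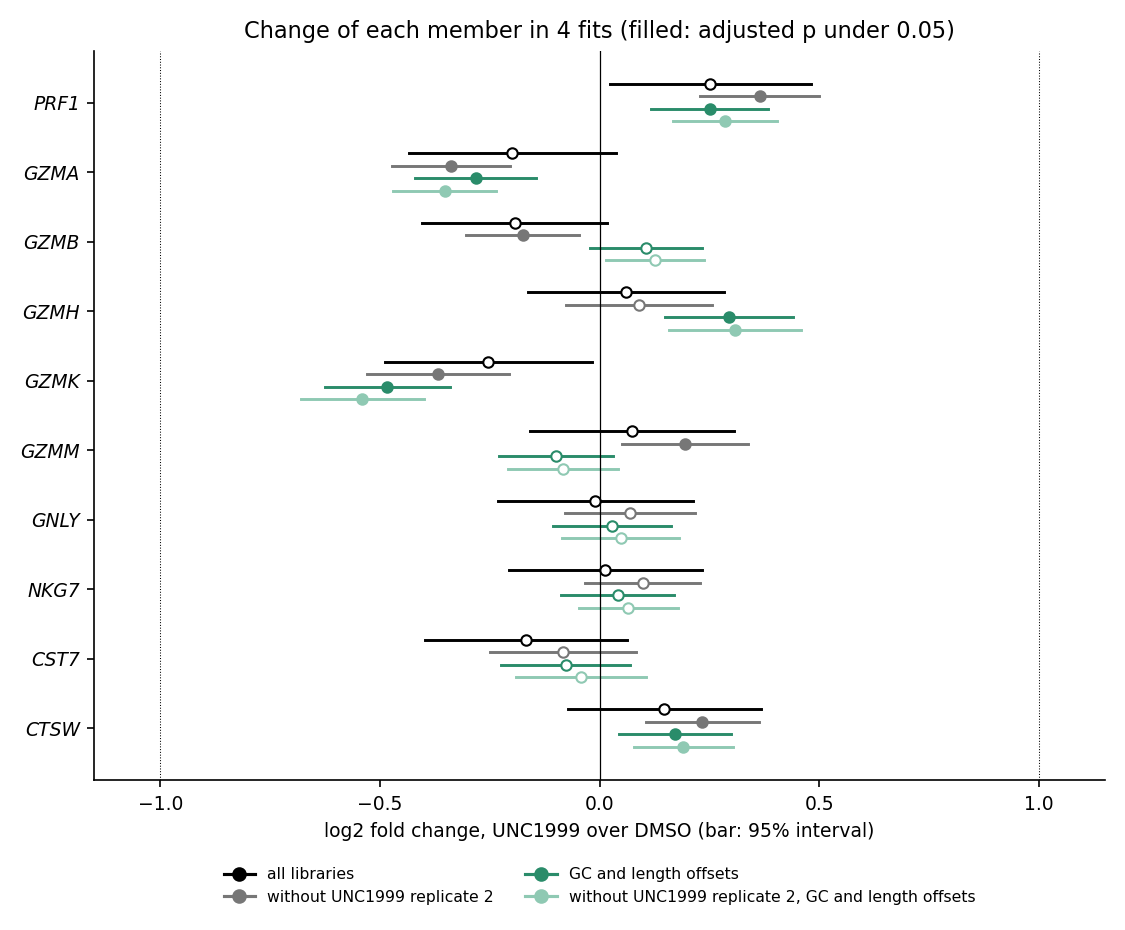
Log2 fold change of UNC1999 over DMSO for each member with its 95% interval, in 4 fits (all libraries, without UNC1999 replicate 2, with GC and length offsets, and both); filled points have an adjusted p under 0.05, and dotted lines mark a 2-fold change either way. PRF1 lies above 0 and GZMA and GZMK below 0 in all 4 fits, GZMB and GZMM change sign with the offsets, and no interval reaches a dotted line.

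Among the genes for granule cargo processing and granzyme inhibitors, every called change was downward. Beside the counts of this and the next lists stand the shares of all tested genes, 15.7% higher and 19.5% lower with all libraries, 14.5% and 18.7% with offsets and 22.2% and 23.5% without replicate 2. Of 8 tested genes for cargo processing and granzyme inhibitors, 6 fell in UNC1999 cells and 0 rose (median log2 fold change -0.43, against -0.01 over all tested genes). With offsets 5 fell and 0 rose, and without replicate 2 it was 7 and 0. IGF2R and M6PR encode the mannose 6-phosphate receptors that sort granzymes to granules. IGF2R had 529.1, 490.5 and 532.7 CPM in UNC1999 libraries and 809.5 and 708.8 CPM in DMSO libraries, without overlap (log2 fold change -0.55, SE 0.11, adjusted p = 9.82e-05, and -0.48 with offsets). M6PR fell by 0.60 on the log2 scale (adjusted p = 0.000125), and by 0.28 with offsets (adjusted p = 0.00315). SERPINB9, the intracellular inhibitor that protects killer cells from their own GZMB, had 183.4, 204.8 and 197.5 CPM in UNC1999 libraries and 276.6 and 266.1 CPM in DMSO libraries (log2 fold change -0.47, adjusted p = 0.00059, and -0.54 with offsets). The other 3 that fell are named because their values were seen. They were CTSC, the protease that activates granzymes, with a log2 fold change of -0.45 (-0.91 with offsets), SRGN, the core protein of serglycin, with -0.40 (-0.74 with offsets), and CALR, a chaperone also found in granules, with -0.41 (-0.14 with offsets, adjusted p = 0.0925). SERPINB1 and SERPINB6 had -0.15 and -0.13 and were not called with all libraries, and SERPINB1 was called without replicate 2 (-0.24, adjusted p = 0.0167).

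Of 12 genes for granule transport and release, 5 were higher and 3 lower (2 and 2 with offsets, 5 and 4 without replicate 2). With offsets these counts were near the shares over all genes. LYST, whose loss causes the giant granules of Chediak-Higashi syndrome, averaged 29.95 ± 3.229 CPM in UNC1999 and 15.93 ± 3.207 CPM in DMSO cells. Its log2 fold change was 0.91 (adjusted p = 8.72e-06), and 0.37 (adjusted p = 0.0243) with offsets. RAB7A, a GTPase of late endosomes, fell by 0.64 on the log2 scale (adjusted p = 2.41e-05) and by 0.33 with offsets (adjusted p = 0.000285). AP3B1, a subunit of the AP-3 adaptor that sorts granule cargo, had 0.47 (adjusted p = 0.00268) but 0.05 with offsets (adjusted p = 0.754).

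Of 15 transcription factors linked to granule genes, 3 rose and 5 fell (2 and 4 with offsets, 2 and 6 without replicate 2). With all libraries and with offsets the counts higher were near the share over all genes. EOMES, a T-box factor that drives PRF1 and GZMB in mouse lymphocytes, had 95.08, 108 and 103 CPM in UNC1999 libraries and 173.7 and 167.2 CPM in DMSO libraries. It fell by 0.74 on the log2 scale (adjusted p = 1.86e-06), and by 0.41 with offsets. ID2, an inhibitor of E proteins needed for NK cell development, fell by 0.61 (adjusted p = 4.55e-05), and by 0.31 with offsets. ZEB2, a zinc finger factor of NK cell maturation, was a low transcript with 7.299 ± 0.7109 CPM in UNC1999 and 3.573 ± 0.6638 CPM in DMSO cells. Its log2 fold change was 1.03 (adjusted p = 0.000519), and 0.51 with offsets (adjusted p = 0.0777). The other T-box factor, TBX21, had -0.16 (adjusted p = 0.265), and RUNX3, of the family whose letters stand in the PRF1, GZMA and GZMB promoters above, had -0.05 (adjusted p = 0.766). TBX21 and RUNX3 were picked after their values were seen.

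Of 9 death ligands and effector cytokines, 4 were tested, of which 1 rose and 1 fell (1 and 2 both with offsets and without replicate 2), too few to set against the shares over all genes. TNF, LTA and CCL3 were listed at 0 in all 5 libraries, where the limit given above for HLA-E and the mitochondrial genes holds. TNFSF10, the death ligand TRAIL, had 13.21, 14.28 and 12.86 CPM in UNC1999 libraries and 4.346 and 8.086 CPM in DMSO libraries (log2 fold change 1.11, SE 0.20, adjusted p = 3.33e-05, and 0.87 with offsets). The chemokine XCL1 fell by 0.69 on the log2 scale (adjusted p = 3.45e-05), and by 0.94 with offsets. Granule proteases of myeloid cells that lie beside the members on chromosomes 14 and 19 had no or almost no counts. CTSG, ELANE, PRTN3, AZU1 and CFD had 0 counts in all 5 libraries, which allows up to 0.343 to 0.355 CPM per library for counting error alone and not for unassigned reads. CMA1 had 0, 1 and 1 counts in UNC1999 libraries and 0 and 1 in DMSO libraries.

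**Figure D5:**
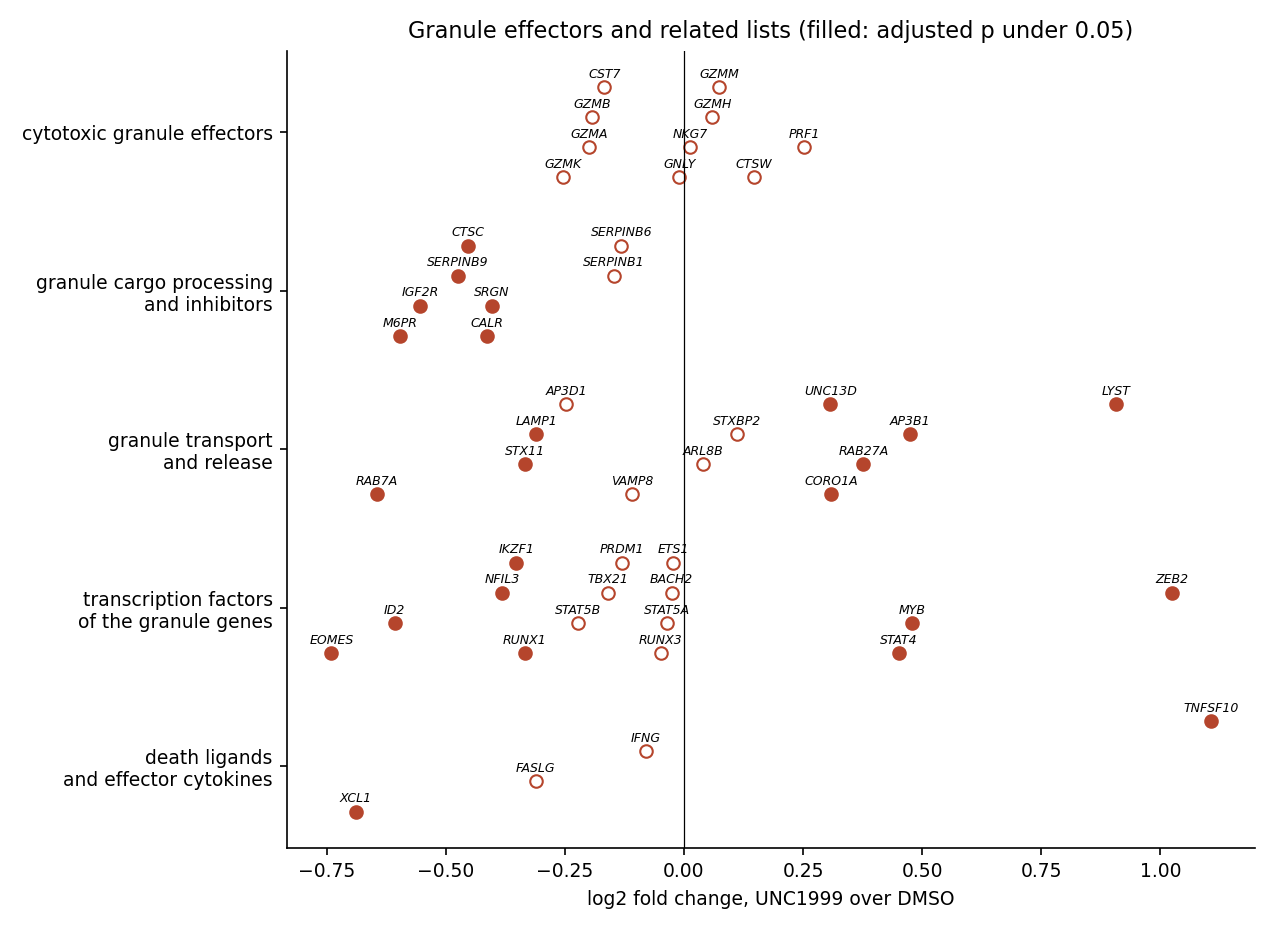
Log2 fold change of UNC1999 over DMSO for each tested gene of the effector list and 4 related lists, with filled points where the adjusted p is under 0.05. All effector points are open and lie between -0.25 and 0.25, 6 of the 8 cargo processing points are filled and on the negative side, and the transport and transcription factor lists have filled points on both sides.

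Beside the counts of called cell markers stand the shares of all tested genes, 15.7% higher and 19.5% lower with all libraries. They were 14.5% and 18.7% with offsets, and 22.2% and 23.5% without replicate 2. With 11 tested NK markers and fewer of the other cell types, the counts are too few to set against those shares. CD7 rose in UNC1999 cells (log2 fold change 0.84, adjusted p = 7.38e-06) and CD244, an activating receptor, fell by 0.55 (adjusted p = 0.000147), the only 2 of 11 tested NK markers called with all libraries. With offsets 2 were higher and 3 lower, and without replicate 2 the counts were 1 and 1. With offsets CD7 (0.68) and FCGR3A (0.66) were higher, KLRD1 (-0.71), KLRC1 (-0.24) and CD244 (-0.19) lower. Without offsets KLRD1 had -0.05 (adjusted p = 0.80), KLRC1 0.002 (adjusted p = 0.992) and FCGR3A 0.40 (adjusted p = 0.109), with overlapping groups. The change of KLRD1 therefore rested on the correction, which used a transcript length of 15550 bases for it. Of 3 tested T cell markers CD6 rose (1.10, adjusted p = 0.00889) and CD28 fell by 0.43 (adjusted p = 0.021). CD3E was called with offsets (0.24, adjusted p = 0.00766). S100A9 was the called myeloid marker (-1.05, adjusted p = 7.56e-05), and PAX5, the only tested B cell marker, had -0.25 (adjusted p = 0.183). Centred on its own mean, the average log2 CPM of the 10 members was 0.04, -0.07 and -0.01 in UNC1999 libraries and -0.02 and 0.06 in DMSO libraries. The libraries of each group spread more widely than the group means differed. This average pools members with fold changes of both signs, which partly cancel, so it describes no single member. Over the 5 libraries the genes with the profile nearest to this average, of 9302 compared, were GSS, a glutathione synthesis enzyme (root mean square distance 0.00766 log2), RPLP1, a ribosomal protein (0.0135), and CARHSP1, an RNA-binding protein (0.0143). Their log2 fold changes were small, at -0.0438, -0.0229 and -0.0366.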

How the data were processed

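RNA of NK92MI cells was sequenced in 3 UNC1999 and 2 DMSO libraries, made with a Trizol extraction and an NEBNext Ultra kit per the labels' protocols. The authors deposited raw whole-number read counts per gene symbol in a table of 57221 rows. Tools listed in the submitters' processing notes, without roles, are HTSeq 0.13.5, STAR 2.7.9, edgeR 3.34.0 and fastp, with the build hg19. No source used here states the gene annotation, the strand setting or the treatment of reads with several matches.

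Counts were filtered with filterByExpr, scaled with TMM and tested with edgeR 4.0.16 (R 4.3.3) by the quasi-likelihood F-test, adjusting by Benjamini-Hochberg over 13075 genes (threshold 0.05). The TMM factors came to 1.02, 1.05 and 1.01 in UNC1999 and 0.954 and 0.961 in DMSO. The steps were tested on simulated data. A count of 0 allows up to 3 counts, which, like the Wilson intervals (95%), covers counting error only. Log2 CPM used a prior count of 2. The corrected fit added offsets per library, splines of GC content (6 degrees of freedom) and length (4) fitted to how far a library departs from the average library, on the 84.3% of tested genes with both values. The average is over both groups, so a treatment difference that runs along GC content or length is removed as well. Gene lengths, GC content and positions came from GENCODE 29 (GRCh38), with no conversion from hg19; 35811 rows matched by name and 24 through older symbols, and 1939 rows whose symbol stands on several rows were left out of that match. Promoters came from RefSeq.

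Alternatives were DESeq2 1.42.0 (size factors and Wald test), limma 3.58.1 (voom), other factors and filters, robust dispersion, a replicate block, each library left out, factors computed without the members and ranks by the longest coding transcript; offsets with a library left out and ratios from corrected CPM were added after seeing the data. Replicate numbers are not stated to pair the libraries. The correlation of deviations from group means was 0.07 for replicate 1 and 0.04 for replicate 2. The deviations of the 2 DMSO libraries mirror each other, so these values are not separate checks and cannot settle whether libraries were paired. The members and lists were chosen with earlier results of these data known. Named were all 10 members, the 3 called genes of smallest p per list (the third replaced by the best of the other direction where all 3 agreed; with none called, the most abundant), all proteases beside the member loci, and the 3 genes of nearest profile.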

Additional observations from a re-analysis of the deposited data

How the results depend on the processing

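The 5 libraries, UNC1999 replicate 2 and the GC trend limit every call on the members: with all libraries an interval of about 0.2 on either side of a log2 fold change is the precision reached. Against 0 called higher and 0 called lower among the members, 1 was called higher (PRF1) with DESeq2 size factors, no factors, upper-quartile factors, the stricter filter and the DESeq2 Wald test. With GC and length offsets 3 were higher and 2 lower. Leaving out each library in turn gave 0 to 3 higher and 0 to 3 lower without offsets, and 1 to 3 higher and 2 lower with them, all calls without offsets coming from leaving out UNC1999 replicate 2. Where a DMSO library is left out, the lone DMSO library is assumed to vary like the UNC1999 group. Genes called higher ran from 1158 to 2862 and lower from 1367 to 3030 as libraries were left out (1158 and 1367 without DMSO replicate 1, 1309 and 1667 without DMSO replicate 2), and with offsets from 1001 to 1735 (1291, 1278, 1001 and 1129 without UNC1999 replicates 1 and 3 and DMSO replicates 1 and 2) and from 1549 to 2138 (1644, 1549 and 1603 without UNC1999 replicate 1 and DMSO replicates 1 and 2). Using no factors shifted the median of all genes by 0.10 on the log2 scale, and upper-quartile factors by 0.07. The replicate block gave 0 and 0 members and 1886 and 2136 genes, so it changed no call on the members. No DMSO library shares the number of UNC1999 replicate 3, so the block compares replicates 1 and 2 alone and is a weak check.

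GNLY, at -0.01 in the first fit, turned positive with DESeq2 size factors (0.0126, and 0.0126 in the Wald test), no factors (0.0931), upper-quartile factors (0.0601), the stricter filter (0.0292) and offsets (0.0287), ran from -0.0626 to 0.0689 as libraries were left out, and with offsets was 0.0288, 0.0479, 0.0192 and 0.0737 without UNC1999 replicates 1, 2 and 3 and DMSO replicate 2. NKG7 turned negative with the replicate block (-0.0197) and ran from -0.0428 to 0.0978 as libraries were left out, and was -0.00842 with offsets and without DMSO replicate 1. GZMM turned negative with the block (-0.00887), with offsets (-0.0987) and with offsets and a library left out (-0.0977, -0.0837, -0.113, -0.114 and -0.1). GZMB turned positive with offsets (0.106, and 0.0993, 0.127, 0.108, 0.0584 and 0.136 with UNC1999 replicates 1 to 3 and DMSO replicates 1 and 2 left out in turn). GZMH ran from -0.0295 without DMSO replicate 1 to 0.147 without DMSO replicate 2. The ratio of PRF1 to GZMH had a log2 difference of 0.182 from counts and -0.056 from corrected CPM. The cause of these turns was not tested. PRF1 and CTSW stayed positive and GZMA, GZMK and CST7 negative in all 22 alternatives. The alternative without mitochondrial genes changed nothing, since those genes were listed at 0.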
